A study of Mus musculus with 6 samples.

Results

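Neurons release transmitter when synaptic vesicles, docked at the active zone of the presynaptic terminal, fuse with the plasma membrane on entry of calcium and are then retrieved by endocytosis. The 47 genes described here encode parts of that cycle: calcium sensors, SNARE proteins and their regulators, priming factors, vesicle membrane proteins, synapsins and RAB3 proteins, active zone scaffolds and endocytic proteins. They were chosen by symbol, with earlier results of these data known, and are 47 of the 33084 genes in the deposited counts. All 47 were found, and all 47 passed the filter on low counts. In the embryonic forebrain most synapses have still to form, and many of these genes are already transcribed in young neurons, where their products move in growing axons.

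Forebrains were microdissected at embryonic day 15.5 from wild-type (wt) mice and from mice heterozygous for an inactive allele of Dyrk1a (Dyrk1a+/-), with 3 libraries per genotype that the labels call biological replicates. Which part of Dyrk1a was inactivated is not stated in the labels, nor are the sex, litter and strain background of the embryos or whether each library came from 1 embryo, so p-values measure the spread between these libraries. Dyrk1a encodes a kinase that phosphorylates, among many proteins, dynamin 1, amphiphysin and synaptojanin 1 of the endocytic machinery, whose genes Dnm1, Amph and Synj1 are among the 47. The comparison asks which transcripts differ when 1 copy of Dyrk1a is inactive. Counts were scaled to each library's total with TMM factors (CPM), and genotypes were compared for 19403 genes with edgeR's quasi-likelihood test. A negative log2 fold change means a lower level in heterozygotes, each value carries its standard error (SE), and p-values were adjusted by Benjamini-Hochberg over all genes tested, with a threshold of 0.05.

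Libraries held 18699434 to 32865708 counts. Dyrk1a was at 177, 186 and 160.2 CPM in wt and 149, 147 and 158 CPM in heterozygotes. All heterozygotes thus lay below all wt libraries, as they did in 7.49% of all genes tested. The log2 fold change was -0.20 (SE 0.079), or 13.2% below wt, with an edgeR adjusted p of 0.59. Since the inactivated part of Dyrk1a is not stated, this level is not a check of the genotype. The 3 small structural RNA genes Rn7sk, Rpph1 and Rmrp took 4.46% of the counts of wt replicate 3 and 4.0% of those of heterozygote replicate 2, and 2.57% to 3.01% elsewhere. This pair of libraries stood apart from the 4 others. The telencephalic marker gene Emx1 was present in every library, at 20.2 to 34.2 CPM, and a list of midbrain and hindbrain markers summed to 2.51 to 5.71 CPM per library. Over all genes, edgeR called 2 of 19403, which is 0.0103%, and DESeq2 called 30, which is 0.155%.

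No presynaptic gene passed the test. Of the 47, 0 had an adjusted p under 0.05 by edgeR (lowest 0.483, for Sv2b) and 0 by DESeq2 (lowest 0.17). At an unadjusted p under 0.05 there were 19, of which 18 were lower in heterozygotes and 1, Syt13, was higher. Over all genes tested 4.61% were lower and 3.27% higher at that p, against 38.3% and 2.13% of the 47. Because the 47 were chosen with earlier results of these data known, such shares describe them and are not a test. The 18 became 5 without heterozygote replicate 3, 7 without wt replicate 1 and 8 without wt replicate 2, in fits where 2.68%, 2.53% and 3.7% of all genes were lower at that p. As a group the genes lay slightly below wt: 41 had a negative log2 fold change, 87.2% against 48.8% over all genes. Their median was -0.17 against 0.005 over all genes. With libraries scaled to neuron-wide markers 32 of the 47 were lower, where 26.3% of all genes were. In 19 of them all 3 heterozygotes lay below all 3 wt libraries, where 7.49% of all genes did so, and in 0 did all 3 lie above, where 6.53% of all genes did. An exact permutation test (2-sided) gives such a gene p = 0.1, which is as low as 3 libraries a group can reach. The differences were small, from 13.7% to 29% below wt in the 18 genes, and the SE of the 47 ran from 0.067 to 0.199 on the log2 scale. In bulk tissue, fewer neurons and less of a transcript per neuron cannot be told apart.

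**Figure D1:**
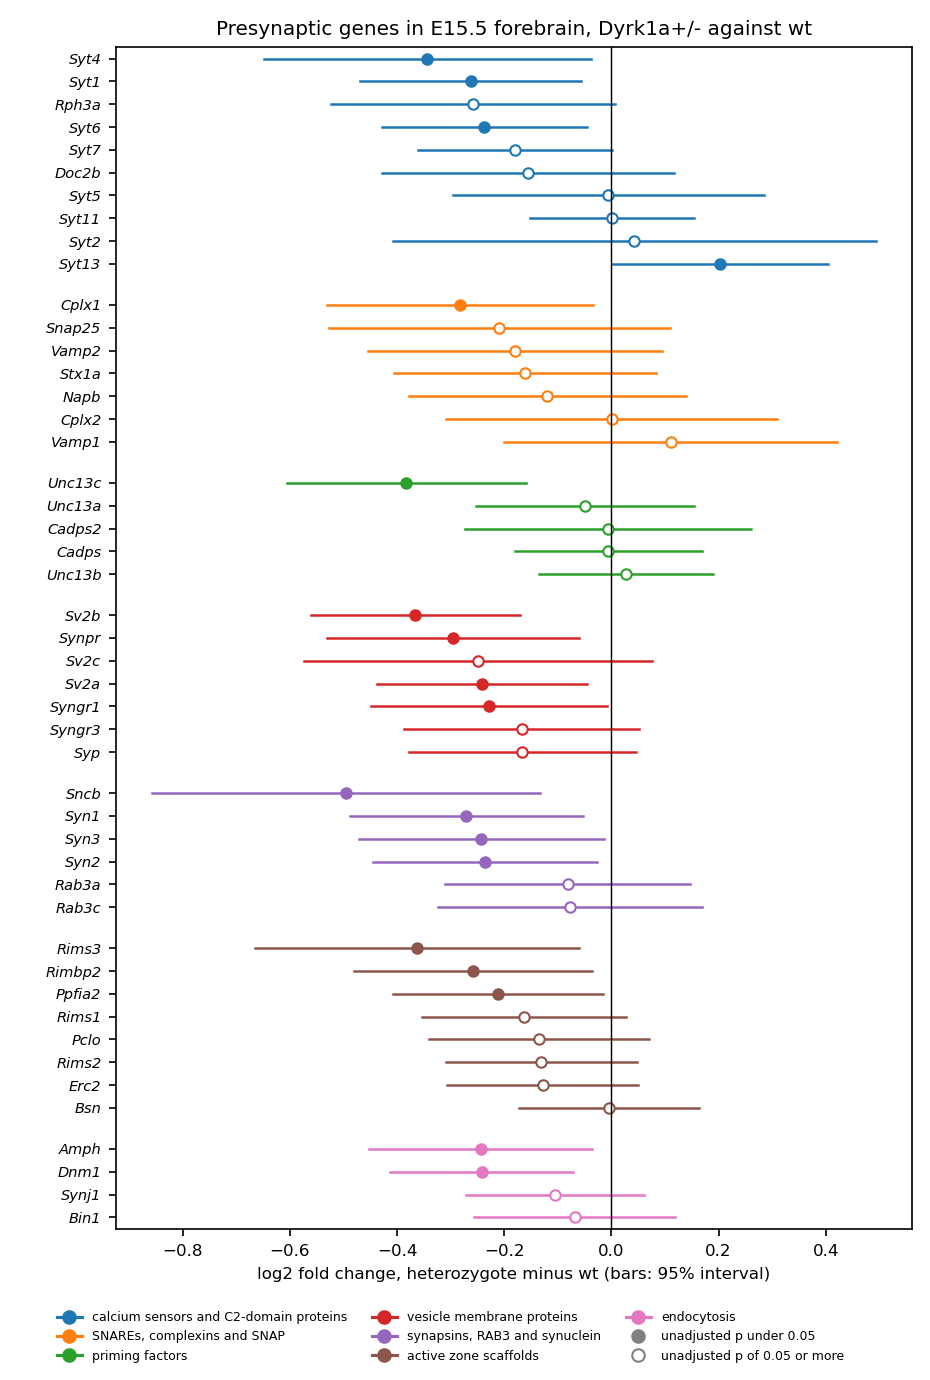
Log2 fold change of each of the 47 presynaptic genes (x axis, heterozygote minus wt, 3 libraries per genotype), grouped by role. Bars are 95% intervals from the edgeR quasi-likelihood fit and filled points mark an unadjusted p under 0.05. Most points lie left of 0, from -0.49 (Sncb) to 0.20 (Syt13), and 18 intervals lie wholly below 0.

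The change in the group was uneven across libraries. Heterozygote replicate 3 had the lowest CPM of the 6 libraries in 29 of the 47 genes, and heterozygote replicates 1 and 2 in 6 each. The mean log2 CPM of the 47, centred per gene, was 0.11, 0.072 and 0.059 in wt and -0.06, -0.018 and -0.16 in heterozygotes, so the genotypes did not overlap. Within the pair of libraries that stood apart the difference was -0.078, with 35 of 47 genes lower, and within the 4 others it was -0.20, with 41 lower. These counts by library were not made over all genes, so they do not show whether the pattern is particular to the 47. The count of 18 genes lower at an unadjusted p under 0.05 became 26 with a model term for the pair of libraries, where 8.23% of all genes were lower at that p, and 27 on the 4 others alone, where 7.08% were. In these fits and those without heterozygote replicate 3, wt replicate 1 or wt replicate 2 the number of genes with a negative log2 fold change ran from 39 to 42.

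Most neuron-wide markers and most markers of several non-neuronal cell types had lower values as well, and most markers of dividing progenitors had higher ones. Over all genes tested 48.8% had a negative log2 fold change, and 4.61% were lower and 3.27% higher at an unadjusted p under 0.05. The marker lists too were chosen with earlier results of these data known. Of 17 neuron-wide markers 14 were lower (median log2 fold change -0.11). At an unadjusted p under 0.05 were 6, all lower, among them the neurofilament genes Nefl (-0.28, SE 0.086) and Nefm (-0.27, SE 0.092), Mapt, which encodes tau (-0.25, SE 0.097), and the surface glycoprotein gene Thy1 (-0.87, SE 0.293). The neuron-wide list summed to 9106 to 9581 CPM in wt and 8355 to 8731 CPM in heterozygotes. Of 16 cycling cell markers 16 were higher and 15 were so at an unadjusted p under 0.05, with summed levels of 1153 to 1295 CPM in wt and 1441 to 1799 CPM in heterozygotes. Of 9 intermediate progenitor markers 8 were higher and 6 were so at an unadjusted p under 0.05. Their summed levels were 539 to 600.0 CPM in wt and 582 to 715 CPM in heterozygotes, which overlap. By edgeR 0 genes of these 3 lists passed over all genes, and by DESeq2 3 cycling cell markers did. Of 12 radial glia markers 7 were higher and 5 lower (median 0.15), 3 higher and 1 lower at an unadjusted p under 0.05, and their sum was 2017 to 2067 CPM in wt and 1881 to 2039 CPM in heterozygotes. Lower values were seen for 5 of 6 oligodendrocyte precursor markers (median -0.33), 4 of 4 tested astrocyte markers (-0.34), 7 of 8 microglia markers (-0.18), 6 of 8 meninges markers (-0.22, of which 1 passed by edgeR), 7 of 8 endothelial and pericyte markers (-0.071) and 6 of 7 erythroid markers (-0.50). The 1 erythroid marker that was higher had a log2 fold change of 2.62, with all 3 heterozygotes above all 3 wt libraries. It was at an unadjusted p under 0.05, as were 3 of the 6 lower erythroid markers. For interneuron and striatal markers 10 of 14 were lower (-0.12), and for choroid plexus 2 of 5 (0.053). Lower at an unadjusted p under 0.05 were 3 oligodendrocyte precursor, 2 astrocyte, 2 microglia and 4 meninges markers. So were 0 endothelial and pericyte, 3 interneuron and striatal and 0 choroid plexus markers, and in these 7 lists 0 were higher at that p. The part of these cell types in the presynaptic values was not tested.

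With libraries scaled to the summed counts of the neuron-wide markers in place of TMM, 32 of the 47 genes were lower and their median log2 fold change was -0.057. This scaling moves all genes up by nearly the same amount, so it leaves the place of the presynaptic genes among all genes as it was: the median of all genes moved to 0.12, and 26.3% of all genes were lower. Unc13c (-0.27), Sv2b (-0.25) and Sncb (-0.38) were lower at an unadjusted p under 0.05, and Syt13 (0.32) was higher; 1.81% of all genes were lower at that p. The sign turned for the 9 genes whose negative values were smaller than that shift: Syt5, Unc13a, Cadps, Cadps2, Rab3a, Rab3c, Bsn, Synj1 and Bin1. By role, lower genes stayed at 7 of 7 for vesicle membrane proteins and at 5 of 7 for SNAREs, complexins and SNAP. They went from 6 to 4 of 6 for synapsins, RAB3 and synuclein, and counts for the other roles are given below. The part of neuron number in the lower presynaptic levels was not tested.

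**Figure D2:**
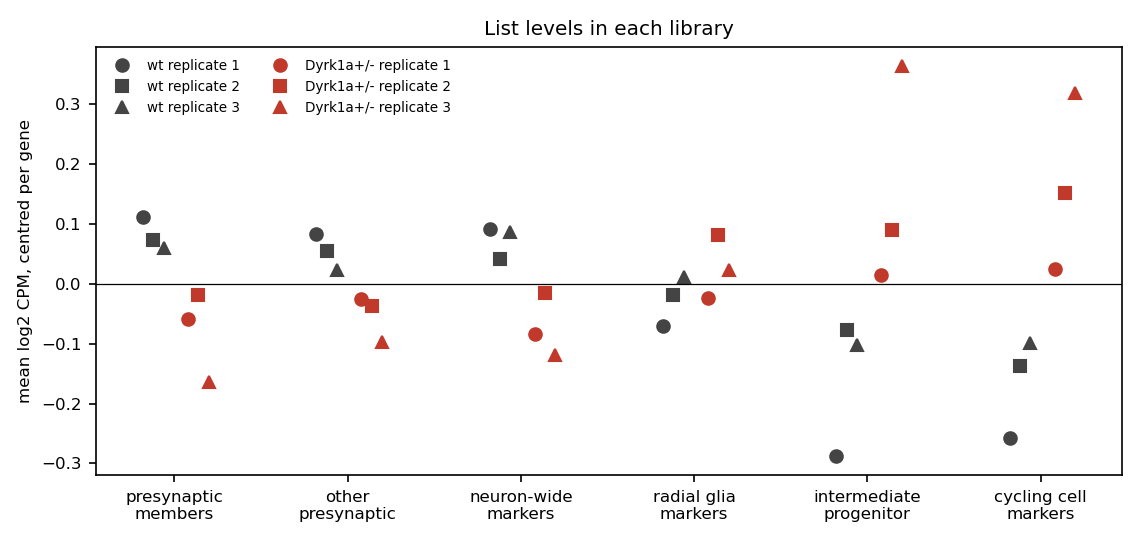
Mean log2 CPM of each gene list in each library, centred per gene over the 6 libraries (y axis), with wt in grey and heterozygotes in red and the marker shape giving the replicate number. The 3 heterozygotes lie below the 3 wt libraries for the presynaptic genes, the other presynaptic genes and the neuron-wide markers, and above them for the intermediate progenitor and cycling cell markers. Heterozygote replicate 3 has the lowest presynaptic value, -0.16, and the highest cycling value, 0.32.

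Promoter sequences are shown for 4 of the genes, Syn1, Sncb, Unc13c and Amph, all lower at an unadjusted p under 0.05. No gene near or above wt is shown beside them, and a part of the promoters in the lower values was not tested. RefSeq windows on GRCm38.p6 matched 36 of the 47 genes, and the 250 bases before each start were searched on both strands, in 49 windows of these genes and in 32851 windows of all genes. The cyclic AMP response element TGACGTCA was found in 1 of the 49 windows, that of Syn1 (2.04%), and in 1.55% of all windows. TTCAGCACC is the left part of the element bound by REST, a repressor of neuronal genes in other cells. It was also found in the Syn1 window alone, 1 of 49, and in 0.301% of all windows. The GC box GGGCGG was in 59.2% of the windows of these genes and in 32.7% of all windows, with median GC contents of 60.8% and 52.4%. The 26 genes with a GC box and the 10 without had the same median log2 fold change to 2 decimals, -0.19. The palindrome reported at promoters that DYRK1A occupies was in 0 of the 49 windows and in 0.39% of all windows. A motif this rare can be absent from 49 windows of any genes, so its absence says nothing of the 47. Capitals below mark matches to these 4 motifs, and each sequence runs 5′ to 3′ on the gene's strand. Sncb and Unc13c are shown to the base before the RefSeq start, and Syn1 and Amph as the part of the window that lies before the first base of the GENCODE M21 gene, which leaves off 86 and 146 bases. Matches do not overlap each other there. The Syn1 stretch holds 1 match to the REST part and 1 to the cyclic AMP element, Sncb and Unc13c hold 1 GC box each on the opposite strand, and Amph holds 0 matches. A match is a description of letters, not of binding.
Syn1 promoter, GRCm38.p6 chrX:20921005-20921168, minus strand: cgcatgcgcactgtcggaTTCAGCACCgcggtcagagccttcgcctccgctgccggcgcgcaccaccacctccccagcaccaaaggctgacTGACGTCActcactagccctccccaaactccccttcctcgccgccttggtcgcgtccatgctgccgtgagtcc
Sncb promoter, GRCm38.p6 chr13:54766596-54766845, minus strand: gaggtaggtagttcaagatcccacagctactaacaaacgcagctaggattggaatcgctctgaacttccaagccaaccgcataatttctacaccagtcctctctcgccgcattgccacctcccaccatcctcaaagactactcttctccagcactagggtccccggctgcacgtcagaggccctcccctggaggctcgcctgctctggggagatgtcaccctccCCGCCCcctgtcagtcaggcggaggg
Unc13c promoter, GRCm38.p6 chr9:73969038-73969287, minus strand: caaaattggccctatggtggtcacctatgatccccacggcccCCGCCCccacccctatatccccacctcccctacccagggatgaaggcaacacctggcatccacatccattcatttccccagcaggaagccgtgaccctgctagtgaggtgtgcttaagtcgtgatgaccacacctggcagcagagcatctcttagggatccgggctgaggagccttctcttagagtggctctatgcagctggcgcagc
Amph promoter, GRCm38.p6 chr13:18948101-18948204, plus strand: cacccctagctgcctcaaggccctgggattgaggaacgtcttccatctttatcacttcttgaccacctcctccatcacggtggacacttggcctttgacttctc

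Of the calcium sensors and other C2-domain proteins, 7 of 10 were lower (6 with neuron-wide scaling), 3 of them at an unadjusted p under 0.05. Beside this role and those below, 48.8% of all genes were lower (26.3% with neuron-wide scaling), and 4.61% were lower at that p. Syt1 (ENSMUSG00000035864), the main calcium sensor for fast release, was at 179, 171 and 145 CPM in wt and 144, 137 and 132 CPM in heterozygotes. All 3 heterozygotes lay below wt replicate 3, the lowest wt library, by a small margin in heterozygote replicate 1, and the log2 fold change was -0.26 (SE 0.091). Syt4, a synaptotagmin that does not act as a fast calcium sensor and sits on dense-core and other vesicles, was at 195, 182 and 139.7 CPM in wt and 155, 122 and 129.7 CPM in heterozygotes. Its genotypes overlapped, since wt replicate 3 was below heterozygote replicate 1, and the log2 fold change was -0.34 (SE 0.135). Syt6 was at 35.6, 38.6 and 33.8 CPM in wt and 32, 29.9 and 29.7 CPM in heterozygotes, with no overlap and a log2 fold change of -0.24 (SE 0.085). Syt7, a slow sensor of asynchronous release, ranged from 69.6 to 82.2 CPM in wt and 65.5 to 68.4 CPM in heterozygotes, also with no overlap (-0.18, SE 0.080).

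Other members of the family stood near wt or above it. Syt13 was the 1 member higher at an unadjusted p under 0.05, at 69.3 to 79.3 CPM in wt and 76.7 to 90.9 CPM in heterozygotes, with overlapping genotypes and a log2 fold change of 0.20 (SE 0.089). Syt11, which does not bind calcium, stood at 223 to 230.1 CPM in wt and 219 to 235 CPM in heterozygotes (0.0013, SE 0.067) and Syt5 at 52.2 to 62.5 CPM in wt and 46.5 to 65.9 CPM in heterozygotes (-0.0056, SE 0.128). Syt2, the sensor of fast hindbrain and interneuron synapses, was the least abundant of the 47, at 2.29 to 3.33 CPM in wt and 2.61 to 3.24 CPM in heterozygotes (0.043, SE 0.199). The RAB3 effector rabphilin gene Rph3a (-0.26, SE 0.117) and Doc2b (-0.16, SE 0.120), a sensor of spontaneous release, had negative values whose genotypes overlapped.

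The core fusion proteins had overlapping genotypes. Snap25, which supplies SNARE helices at the plasma membrane, was at 95.3, 89 and 67.2 CPM in wt and 83.5, 65.6 and 68.4 CPM in heterozygotes, and wt replicate 3 lay within the range of the heterozygotes (log2 fold change -0.21, SE 0.140). Leaving out wt replicate 1 gave -0.11, leaving out wt replicate 3 gave -0.35 and leaving out heterozygote replicate 1 gave -0.32. Vamp2, the vesicle SNARE, was at 35.8, 29.4 and 30.1 CPM in wt and 24, 29.9 and 30.3 CPM in heterozygotes. Only heterozygote replicate 1 lay below the wt range (-0.18, SE 0.121), and the value became -0.079 without it and -0.083 without wt replicate 1. Stx1a, the plasma membrane syntaxin, was at 43.6 to 50.9 CPM in wt and 37.7 to 48.5 CPM in heterozygotes (-0.16, SE 0.108). The SNARE recycling factor gene Napb had a log2 fold change of -0.12 (SE 0.114), and Vamp1, a vesicle SNARE gene that is scarce here, of 0.11 (SE 0.137).

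Complexins clamp and promote SNARE-driven fusion, and the 2 forebrain genes differed in their values. Cplx1 was at 18.3, 18.5 and 18.5 CPM in wt and 14.3, 17.1 and 14 CPM in heterozygotes, with no overlap. The wt libraries were nearly equal, and heterozygote replicate 2 was nearest to them (log2 fold change -0.28, SE 0.109). Cplx2 was at 92.4 to 134 CPM in wt and 101 to 127 CPM in heterozygotes, with a log2 fold change of 0.0002 (SE 0.136). The ratio of Cplx1 to Cplx2 CPM within a library was 0.163, 0.2 and 0.138 in wt and 0.141, 0.155 and 0.11 in heterozygotes, which overlap.

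Of the priming factors, which make docked vesicles ready for release, 4 of 5 had negative values (1 with neuron-wide scaling), and 1, Unc13c, was lower at an unadjusted p under 0.05. Unc13c (ENSMUSG00000062151; GRCm38 chromosome 9, 73479422 to 73968966), encoding MUNC13-3, was at 31.3, 27.2 and 26.9 CPM in wt and 21.7, 23.2 and 20.6 CPM in heterozygotes. The highest heterozygote lay below the lowest wt library, and the log2 fold change was -0.38 (SE 0.098), the second lowest p of the 47. Its paralogs were far closer to wt: Unc13a, encoding the main forebrain MUNC13, had -0.049 (SE 0.090) at 205 to 216 CPM in wt and 180.3 to 224 CPM in heterozygotes, and Unc13b (0.027, SE 0.072) at 294 to 306 CPM in wt and 286 to 319.7 CPM in heterozygotes. The ratio of Unc13c to Unc13a CPM was 0.153, 0.127 and 0.125 in wt and 0.104, 0.104 and 0.114 in heterozygotes, with no overlap. This ratio and that of the complexins were picked after the values were seen and were not tested. Cadps (-0.0055, SE 0.077) and Cadps2 (-0.0059, SE 0.118), which prime dense-core vesicles, were near 0. Exons of Colgalt1 overlap 3.92% of the exonic bases of Unc13a on the opposite strand.

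All 7 vesicle membrane genes had negative values, 4 of them at an unadjusted p under 0.05, with a median log2 fold change of -0.24. Sv2b (ENSMUSG00000053025; chromosome 7, 75114894 to 75309262), a transporter-like glycoprotein of synaptic vesicles, had the lowest p of the 47 (0.00218 unadjusted). It was at 39, 39.2 and 37.6 CPM in wt and 32.3, 30.1 and 27.4 CPM in heterozygotes, so all 3 heterozygotes lay below the wt range, which was narrow. The log2 fold change was -0.37 (SE 0.086), with a 95% interval of -0.56 to -0.17 (edgeR, Benjamini-Hochberg adjusted p = 0.483), and it ran from -0.42 to -0.31 with 1 library left out. Its paralog Sv2a, the more widely expressed form, was at 174, 159 and 175 CPM in wt and 141, 157 and 131 CPM in heterozygotes. Here too the heterozygotes lay below wt, by little between heterozygote replicate 2 and wt replicate 2 (-0.24, SE 0.087). Sv2c had -0.25 (SE 0.143), but heterozygote replicate 2, at 20.7 CPM, was within the wt range of 19.3 to 20.9.

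The genes of tetraspan vesicle proteins had log2 fold changes from -0.30 to -0.17. Synpr, encoding synaptoporin, was at 21.2, 21.3 and 18.4 CPM in wt and 17.5, 15.5 and 16.6 CPM in heterozygotes, with no overlap (-0.30, SE 0.104). Syp, its close relative synaptophysin and the usual marker of synaptic vesicles, was at 101, 101 and 115 CPM in wt and 85.1, 103 and 93.6 CPM in heterozygotes. Heterozygote replicate 2 lay within the wt range of Syp, and the log2 fold change of -0.17 (SE 0.094) became -0.097 without wt replicate 3 and -0.10 without heterozygote replicate 1. The synaptogyrin gene Syngr1 ranged from 75.2 to 86.8 CPM in wt and 60.3 to 74.1 CPM in heterozygotes, with no overlap (-0.23, SE 0.097), and Syngr3 from 45.8 to 51.6 CPM in wt and 37.8 to 46 CPM in heterozygotes, where the ranges touch (-0.17, SE 0.097).

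The 3 synapsin genes were all lower at an unadjusted p under 0.05 with no overlap between genotypes. Synapsins tether vesicles into the reserve pool. Syn1 (chromosome X, 20860511 to 20921004) was at 21.4, 23.5 and 22.6 CPM in wt and 19.6, 19.2 and 17.2 CPM in heterozygotes, with a log2 fold change of -0.27 (SE 0.096). Syn2 was at 54.6, 56.2 and 49.4 CPM in wt and 49.1, 46.2 and 40.8 CPM in heterozygotes (-0.24, SE 0.092). For Syn2 heterozygote replicate 1 was only just below wt replicate 3. Syn3, the synapsin of early development, ranged from 90.7 to 95.4 CPM in wt and 66.4 to 85.4 CPM in heterozygotes, with a log2 fold change of -0.24 (SE 0.101). Exons of Timp3 overlap 14.1% of those of Syn3 on the opposite strand, and Araf overlaps 0.27% of those of Syn1. The strand setting of the counting is not given, so how reads from these overlaps were counted is not known.

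Sncb (ENSMUSG00000034891; chromosome 13, 54758860 to 54766595), encoding beta-synuclein, had the largest fold difference of the 47 and rested on low counts, 55 to 150 per library. It was at 4.58, 4.4 and 4.44 CPM in wt and 2.85, 3.7 and 2.93 CPM in heterozygotes, where the wt libraries were close together and the heterozygotes lay below them (log2 fold change -0.49, SE 0.160; 95% interval -0.86 to -0.13). The small GTPase genes Rab3a (-0.082, SE 0.101) and Rab3c (-0.077, SE 0.109), whose products mark vesicles for docking, had overlapping genotypes.

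**Figure D3:**
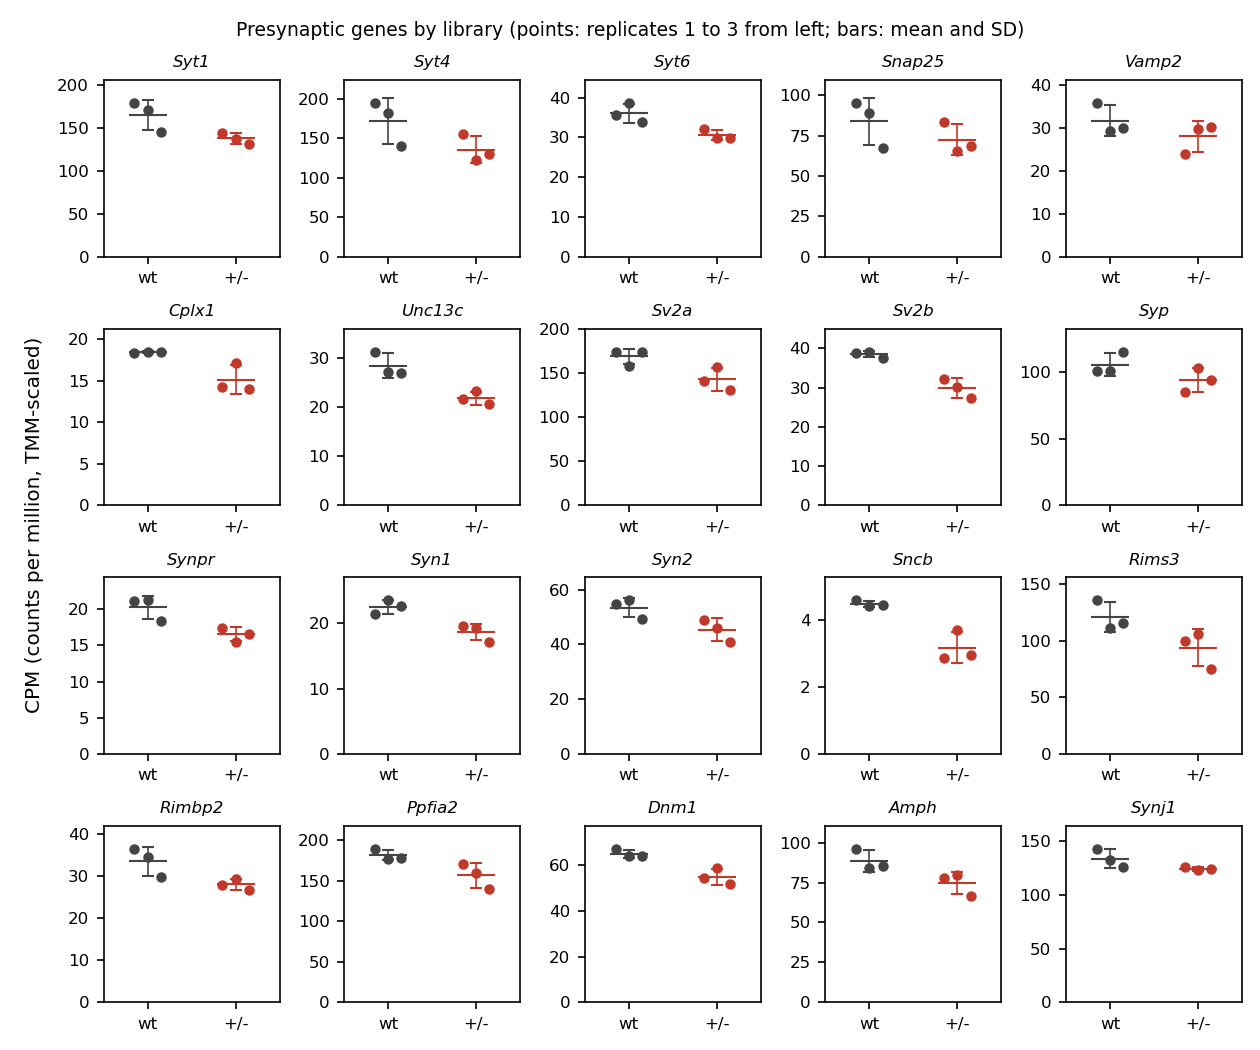
CPM in each library for the 20 presynaptic genes given by library (y axes start at 0), with wt in grey and heterozygotes (+/-) in red. Points are replicates 1 to 3 from left to right, and bars are the mean and SD of 3 libraries. Sv2b, Unc13c, Cplx1 and Dnm1 show no overlap between genotypes, while Snap25, Vamp2 and Syp overlap.

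Active zone scaffold genes were lower in 8 of 8 cases (7 with neuron-wide scaling), 3 at an unadjusted p under 0.05, with a median log2 fold change of -0.15. Rims3, a short RIM protein, was at 136, 111 and 115 CPM in wt and 100.1, 106 and 75.1 CPM in heterozygotes. Heterozygote replicate 3 was by far the lowest, and without that library the log2 fold change of -0.36 (SE 0.133) became -0.23. Rimbp2, which links RIM to calcium channels, was at 36.4, 34.4 and 29.7 CPM in wt and 27.9, 29.3 and 26.7 CPM in heterozygotes, with heterozygote replicate 2 just below wt replicate 3 (-0.26, SE 0.098). Ppfia2, encoding liprin-alpha-2, was at 189, 177 and 178 CPM in wt and 169.9, 159.9 and 140.0 CPM in heterozygotes, with no overlap (-0.21, SE 0.086, and -0.14 without heterozygote replicate 3). The long RIM genes had -0.16 (SE 0.084) for Rims1, whose genotypes did not overlap, and -0.13 (SE 0.079) for Rims2. Of the giant scaffold genes, Bsn, encoding bassoon, had -0.0047 (SE 0.074) and Pclo, encoding piccolo, -0.13 (SE 0.091), a difference that was not tested. Erc2, another scaffold gene, had -0.13 (SE 0.078). Acss3 overlaps 22.3% of the exonic bases of Ppfia2 on the opposite strand, with 425 counts over all libraries against 25745 for Ppfia2.

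Of the endocytic genes, 4 of 4 had negative values (2 with neuron-wide scaling), and 2 of the 3 that encode DYRK1A substrates were lower at an unadjusted p under 0.05. Dnm1 (chromosome 2, 32308471 to 32353338), the neuronal dynamin that pinches off vesicles, was at 67.2, 64.2 and 63.9 CPM in wt and 54.6, 58.8 and 51.7 CPM in heterozygotes, with a clear gap between genotypes. Its log2 fold change was -0.24 (SE 0.075), from -0.29 to -0.20 with 1 library left out. Amph (chromosome 13, 18948205 to 19150921), encoding amphiphysin, which brings dynamin to the vesicle neck, was at 96, 84.1 and 85.1 CPM in wt and 77.6, 79.5 and 66.8 CPM in heterozygotes. All heterozygotes were below wt, and heterozygote replicate 3 was lowest (-0.24, SE 0.091). Synj1 (chromosome 16, 90936092 to 91011308), the phosphatase that uncoats vesicles, was at 143, 132 and 126 CPM in wt and 126, 123 and 124 CPM in heterozygotes. Heterozygote replicate 1 met wt replicate 3, the other heterozygotes lay just below wt, and the log2 fold change of -0.11 (SE 0.073) became -0.055 without wt replicate 1. Synj1 lies 3.56 Mb from Dyrk1a on chromosome 16. Bin1, a broadly expressed relative of amphiphysin, had -0.068 (SE 0.083). Counts measure transcripts and say nothing of phosphorylation of these proteins.

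Levels per kilobase of exon ranged widely and were compared between genes on that scale only. In wt the highest means were Syt4 (44.2 CPM per kb), Syt11 (43.7), Rab3a (42.2) and Sv2a (36.5). The lowest were Syt2 (0.365), Vamp1 (1.25), Sv2c (2.07) and Sncb (2.09). Across the 47 genes Spearman's rho between the wt level and the log2 fold change was 0.273, a description over genes of the same libraries. Abundant genes included both lower ones, such as Syt4 and Sv2a, and ones at or near the wt level, such as Syt11 and Rab3a.

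**Figure D4:**
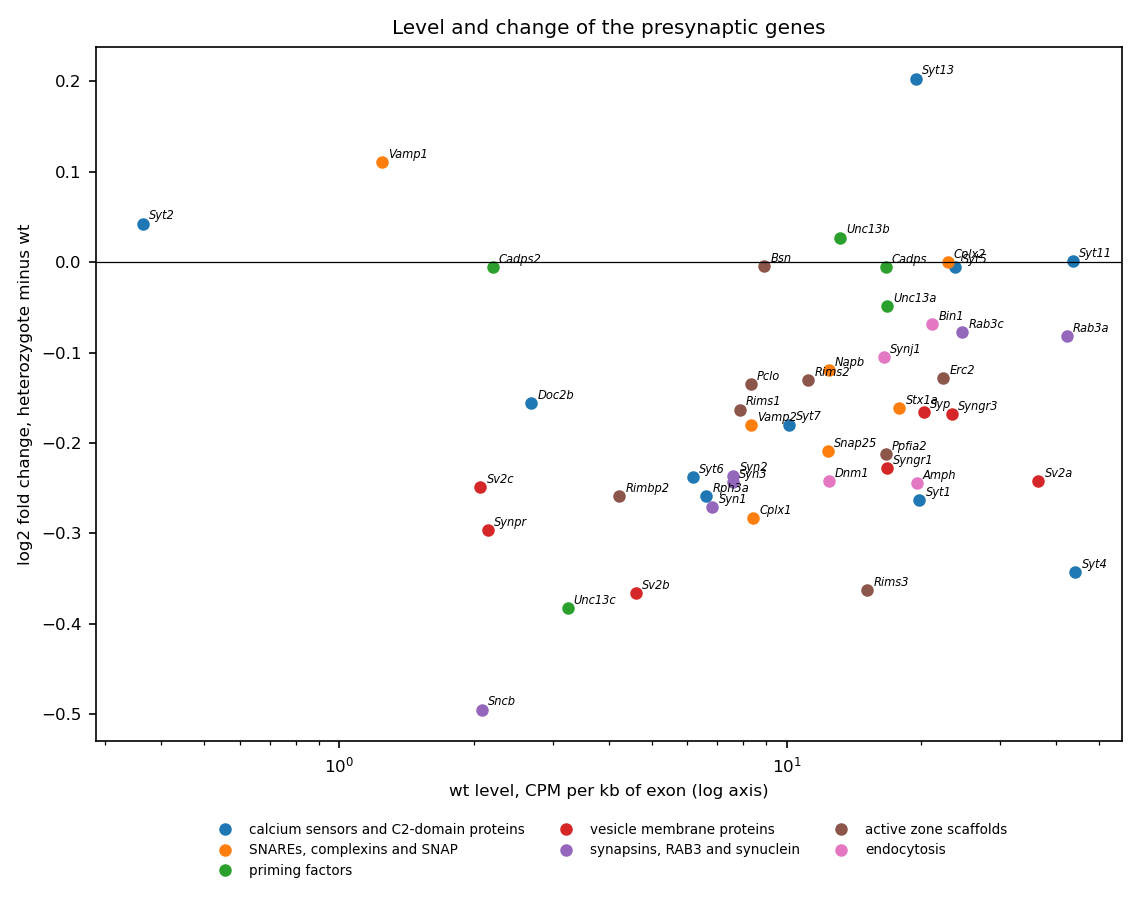
Wt level in CPM per kb of exon (x axis, log scale) against the log2 fold change, heterozygote minus wt (y axis), for the 47 presynaptic genes, coloured by role. Points near 0 occur from the least abundant gene, Syt2 (0.365 CPM per kb), to the abundant Syt11 (43.7), and negative values occur over the whole range between.

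Other presynaptic genes outside the 47 were also mostly lower. Of 64 such genes 62 were tested, 48 were lower and 14 higher, and their median log2 fold change was -0.075. At an unadjusted p under 0.05 there were 9, all lower, which is 14.5% against 4.61% over all genes, and by edgeR 0 passed over all genes. Among those of low p were the RAB3 paralog Rab3b (-0.51, SE 0.106), the dynamin paralog Dnm3 (-0.32, SE 0.075) and the liprin gene Ppfia4 (-0.49, SE 0.142). Others were Rab27b (-0.42, SE 0.136), the adaptor gene Apba1 (-0.24, SE 0.088) and the endophilin gene Sh3gl2 (-0.33, SE 0.123). Dnm3 stood at 119 to 134 CPM in wt and 98.2 to 106 CPM in heterozygotes, with no overlap. The count of 9 was 5 without heterozygote replicate 3 and 4 without wt replicate 1, where 2.68% and 2.53% of all genes were lower at that p. It was 17 when the pair that stood apart had its own term and 15 on the 4 others alone, where 8.23% and 7.08% of all genes were. The difference in medians between these genes and the 47 was not tested. This list too was chosen with earlier results of these data known.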

How the data were processed

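RNA was sequenced from 6 forebrain samples after a stranded total RNA library preparation with ribosomal RNA removal, per the labels' protocols, which also name polyA RNA. HISAT2, HTSeq 0.9.1, SAMtools 1.9, bcl2fastq 2.17.1.14 and builds GRCm38 and mm10 are named in the submitters' processing notes. The authors deposited whole-number counts per gene, with the strand setting not given in the sources used here. Each library's column was taken by its label.

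Gene symbols came from GENCODE M21, which named 32888 of 33084 identifiers. The 19403 genes that passed edgeR's filterByExpr were normalized by TMM and tested with edgeR 4.0.16 (R 4.3.3), after the script was tested on simulated data. DESeq2 1.42.0, limma-voom 3.58.1, DESeq2 size factors, no filter, a replicate block, a term for the pair of libraries, the 4 others alone, neuron-wide scaling, an adjusted p threshold of 0.1 and leaving out each library were the alternatives. Members and lists were chosen with earlier results of these data known. All 47 genes could be named. CPM by library is given for the 16 of lowest p plus Synj1, Amph, Dnm1, Syt1, Snap25, Syp, Syn1 and Vamp2, 20 in all, and at most 8 other presynaptic genes and 4 genes of each marker list are named, by lowest p, apart from some that are not reported here. Totals of 18699434 to 32865708 counts limit low genes most. No library was a copy of another: chi-square per degree of freedom between their counts was 4.86 or more for each pair.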

Additional observations from a re-analysis of the deposited data

How the results depend on the processing

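In every alternative fit 0 of the 47 genes passed over all genes. At an unadjusted p under 0.05 edgeR gave 19 of the 47 and 1528 of all 19403 genes as reported, and the alternatives gave 812 to 3037 of all genes. The number of all genes called, 2 as reported, was 30 by DESeq2, 4 with no filter, 6 when the pair that stood apart had its own model term, 6 on the 4 other libraries alone and 1 with neuron-wide scaling. It was 0 to 5 with 1 library left out. With neuron-wide scaling the 47 had a median log2 fold change of -0.057. At an unadjusted p under 0.05, 3 of the 47 and 5 other presynaptic genes were lower, where 1.81% of all genes were. Synj1 turned to 0.0093 there. On the 4 other libraries alone the median of the 47 was -0.23. There 15 other presynaptic genes were lower at that p, beside 7.08% of all genes. With the term for the pair 17 were, beside 8.23% of all genes. With 1 library left out the median ran from -0.22 to -0.13. Genes of the 47 lower at that p ran from 5 without heterozygote replicate 3 to 20 without wt replicate 3. In these fits 2.68% and 5.71% of all genes were lower at that p. Other presynaptic genes ran from 4 without wt replicate 1, where 2.53% of all genes were lower, to 10. The 10 came without wt replicate 3 and without heterozygote replicate 2, where 5.71% and 5.2% of all genes were lower. The cause of these shifts was not tested. Of 280 values for the 20 genes given by library, under 14 settings, 279 kept their direction. None of these genes passed as reported or under an alternative, so this says nothing of the stability of a call, and the sizes of Snap25, Vamp2, Syp, Synj1, Rims3 and Ppfia2 moved by over 1.5 times with 1 library left out.

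Replicate numbers did not pair the samples: same-numbered libraries correlated at 0.20, -0.32 and -0.16 in their deviations from the genotype means. With the replicate block 0 of all genes were called and 1110 had an unadjusted p under 0.05. At that p 13 of the 47 were lower, where 3.58% of all genes were.

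The median SE of the 47 was 0.097, and differences of the size described here, with a median of -0.17, did not pass over all genes at this depth and number of libraries.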
